A study of Mus musculus with 2 samples.

Results

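The 6 genes described here, Lyz1, Lyz2, Ang4, Mmp7, Itln1 and Mptx2, encode proteins of the Paneth cell granule or their close relatives. They were taken by name from the 27998 genes of the count matrices and read in each of the 10 cell types that the authors annotated. The cells were isolated from the jejunal crypts of 2 males aged 12 months, in which miR-375 had been deleted from the whole body by genome editing (genotype miR-375 knockout). The strain is given as C57BL6/2J in the labels and as B6 albino in the study's methods. Both mice carried the same deletion and neither was treated, so the mice, called replicate 1 and replicate 2, form 1 group (375KO). Crypts were digested with dispase, and from each mouse 1 droplet library was built with 10x Genomics 3′ chemistry, which counts RNA molecules at their poly(A) end. Wild-type mice were not analysed here.

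Paneth cells sit at the base of the small intestinal crypt beside the stem cells and release granules of antimicrobial protein into the crypt lumen. Alpha-defensins are the main peptides of the granule, and in the mouse they are made as precursors that Mmp7 (matrilysin), a metalloprotease, cuts into the active form. Lyz1 is the lysozyme of Paneth cells and Lyz2 the lysozyme of macrophages and other myeloid cells, and both cut the peptidoglycan of the bacterial wall. Ang4 is an antimicrobial ribonuclease of the angiogenin family. Itln1 (intelectin-1) is a lectin that binds sugars of microbial surfaces, and Mptx2 is a mucosal pentraxin. Goblet cells, which secrete mucus, arise like Paneth cells from the secretory branch of the crypt lineage.

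Lyz1 and Lyz2 are neighbours on mouse chromosome 10 (GRCm38, both on the minus strand), with Lyz1 at chr10:117287797-117292868, Lyz2 at chr10:117277331-117282321, and 10547 bases between their annotated starts. The other members are protein-coding genes elsewhere. Itln1 lies at chr1:171518122-171535294 and Mptx2 at chr1:173274382-173277777, both on the minus strand. Ang4 lies at chr14:51763878-51773590 on the minus strand and Mmp7 at chr9:7692090-7699585 on the plus strand. The stretch before each lysozyme start is shown because the pair is alike in sequence and was far apart in level in Paneth cells. All 6 members were matched in the RefSeq promoter table (GRCm38.p6). The RefSeq start of Lyz2 lies 49 bases inside the gene at the position given above, so the bases nearest that start fall within that gene. The Lyz2 bases printed below lie outside it. Over the 250 bases before the RefSeq start, 200 bases of Lyz1 were the same in a global alignment with Lyz2 (80.0%), and 8 of the 50 differing Lyz1 bases lay in the last 100. The first 200 of these 250 bases are printed, from chr10:117292919-117293118 and chr10:117282323-117282522, and capitals mark bases that the alignment does not pair with the same base.
Lyz1: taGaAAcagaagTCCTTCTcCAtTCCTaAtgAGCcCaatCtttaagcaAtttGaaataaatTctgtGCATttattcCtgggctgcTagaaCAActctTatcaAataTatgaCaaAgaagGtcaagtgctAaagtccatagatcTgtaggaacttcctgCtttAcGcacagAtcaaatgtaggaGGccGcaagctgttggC
Lyz2: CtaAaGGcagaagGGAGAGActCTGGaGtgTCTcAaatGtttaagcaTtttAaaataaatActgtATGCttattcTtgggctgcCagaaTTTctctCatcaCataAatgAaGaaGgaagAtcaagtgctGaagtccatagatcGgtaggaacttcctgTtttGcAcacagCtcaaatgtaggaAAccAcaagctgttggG

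The 2 libraries held 2082 and 1193 cells kept by the authors, with medians of 16475 and 15232 UMIs (random barcodes that let each captured RNA be counted once), and they shared 0 barcodes. There were 78 and 54 Paneth cells, which gave sums of 3515066 and 4363692 UMIs. The Paneth label held against its markers, since all 6 alpha-defensin genes chosen to check it were highest in Paneth cells in both mice. The markers chosen for goblet cells, enterocytes, EECs (enteroendocrine cells) and tuft cells (6 of 6 each) also peaked in their own type in both mice, but 4 of 6 did for secretory progenitors and 2 of 6 for TA (transit-amplifying) cells. A Paneth cell held a median of 44684 UMIs in replicate 1 and 80820 in replicate 2, but only 1918 and 2161 detected genes, and the 21 alpha-defensin genes took 70.5% and 76.8% of all Paneth UMIs. Mitochondrial UMIs made up a median of 0.0907% and 0.185% of a Paneth cell, against medians of 4.71% to 13.2% and of 2.19% to 7.59% in the other epithelial types. Levels below are UMIs per 1000000 UMIs of a cell type in 1 mouse (CPM), and since each UMI marks the 3′ end of a molecule, no correction for gene length applies. Where an interval is given, it covers counting error only.

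One property of the matrices bears on each low value below. A sparse count matrix usually lists values above 0, but 302472 of 11830302 listed entries in replicate 1 (2.56%) and 176897 of 4221845 in replicate 2 (4.19%) were listed with the value 0. For the abundant granule genes such stored zeros were frequent in many types other than Paneth cells. Of the enterocytes, 854 of 931 in replicate 1 and 372 of 382 in replicate 2 had a stored 0 for Lyz1, as did 117 of 117 stem cells in replicate 2. No Paneth cell had one for Lyz1, Ang4, Mmp7, Itln1 or Lyz2, and 1 Paneth cell of replicate 2 had one for Mptx2. The authors name SoupX, a tool that subtracts free RNA, without saying to which matrix it was applied. What these entries held before deposit is not known from the files, so a level of 0 outside Paneth cells cannot be read as the absence of the transcript, no limit is drawn from it, and fold differences hold for the values as deposited.

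**Figure D1:**
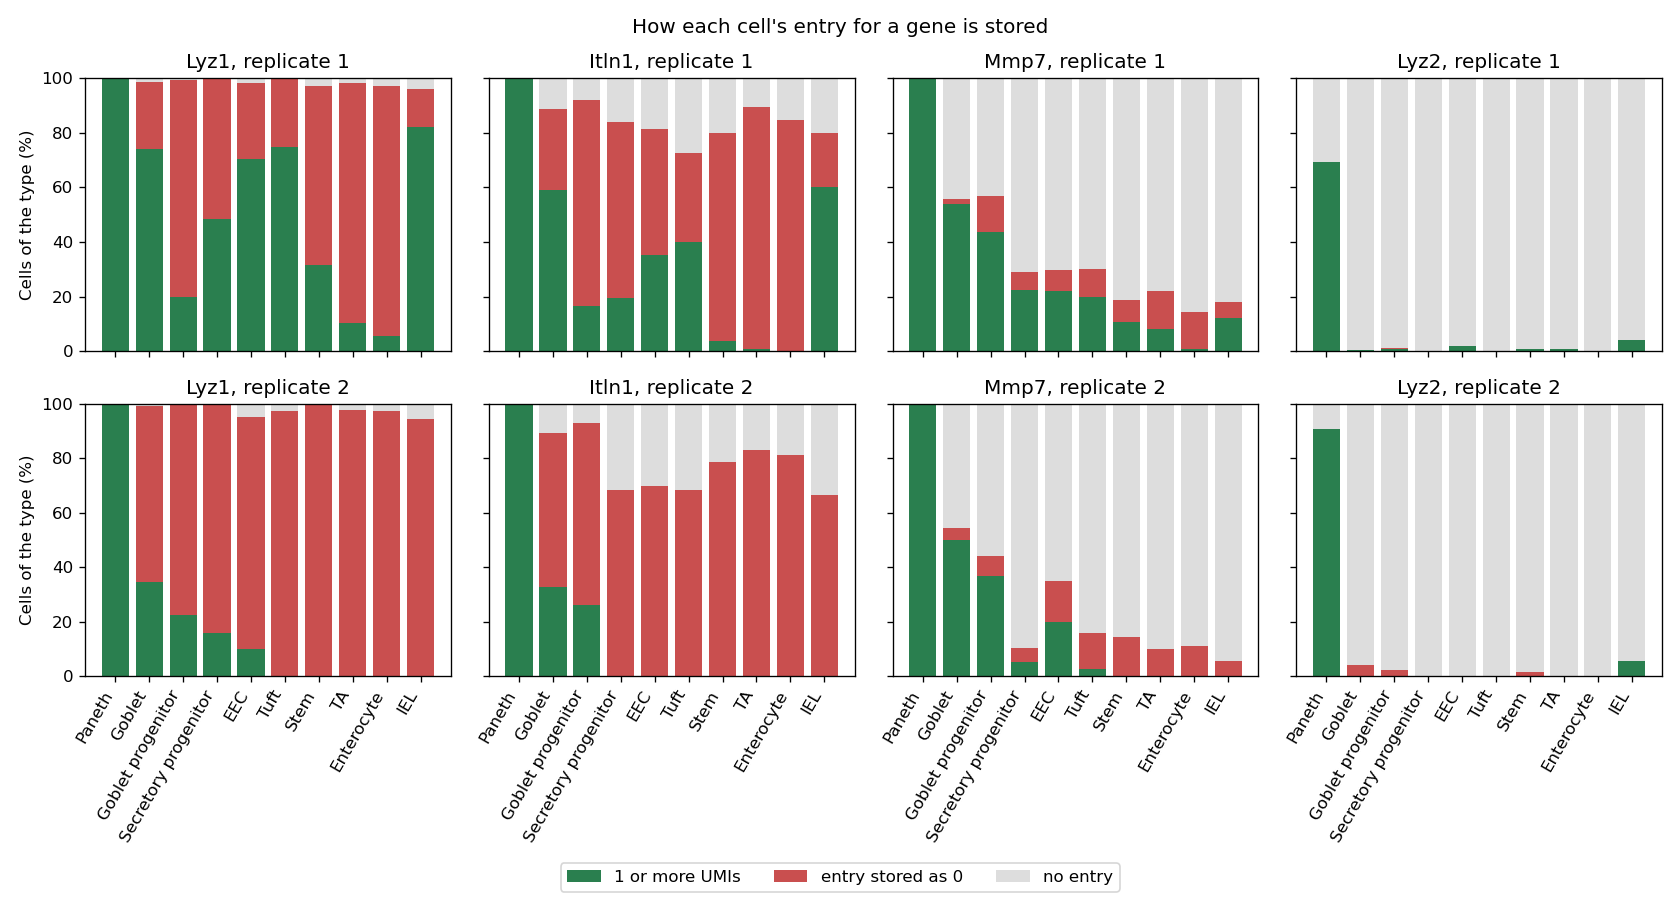
Share of cells (vertical axis, %) of each annotated type (horizontal axis) with 1 or more UMIs of a gene (green), an entry stored as 0 (red) or no entry (grey), for Lyz1, Itln1, Mmp7 and Lyz2 in each mouse. For Lyz1 the red part reached 91.7% of the enterocytes in replicate 1 and 100% of the stem cells in replicate 2, while for Mmp7 it stayed between 1.81% and 15% in the 9 types other than Paneth.

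Lyz1 was the member with the highest level. In Paneth cells it reached 91311 CPM in replicate 1 and 65733 CPM in replicate 2 (78522 ± 18086, SD, n = 2), the 2nd and 3rd highest gene of the class. Goblet cells followed among the epithelial types at 702 and 978 CPM, so that the Paneth level was 130-fold and 67.2-fold higher. Stem cells held 71.8 CPM in replicate 1 and 0 UMIs in replicate 2, where all 117 cells had a stored 0. The ranges of Paneth and goblet cells did not overlap, and below them the ranges of neighbouring types in the order did.

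Lyz2, by contrast, was a minor transcript of Paneth cells. It had 104 UMIs in replicate 1 and 270 in replicate 2, or 29.6 CPM (95% exact Poisson interval 24.2 to 35.8) and 61.9 CPM (54.7 to 69.7). For each Lyz2 UMI there were 3086 and 1062 Lyz1 UMIs in the same cells. A Lyz2 UMI was found in 54 of 78 and 49 of 54 Paneth cells, and after each cell was thinned to 5000 UMIs in 13 of 78 and 12 of 54. In the 8 other epithelial types no sum held more than 3 UMIs of Lyz2, and none of the 931 and 382 enterocytes had one. The mature 3′ ends of the pair are alike too: 28.4% of the 40-base stretches in the last 300 bases of the Lyz1 transcript also occur in Lyz2. Whether part of the Paneth Lyz2 signal comes from Lyz1 molecules was not tested.

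Itln1 was the member with the next highest level. Paneth cells held 49601 and 23202 CPM (36402 ± 18667, n = 2), goblet cells 1196 and 504 CPM and goblet progenitors 99.2 and 334 CPM. Without 2 goblet progenitors of replicate 2 with alpha-defensins above 1% of their UMIs, that value was 186 CPM. The Paneth level was 41.5-fold and 46.0-fold that of goblet cells. The ranges of these 3 classes did not overlap. In the enterocytes, stored zeros took the place of Itln1 in 790 of 931 and 310 of 382 cells and no UMI was left.

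Mptx2 had the largest share of its UMIs in Paneth cells. Paneth cells held 10675 and 9448 CPM (10062 ± 868, n = 2). These cells carried 99.7% of all Mptx2 UMIs of the kept cells in replicate 1 and 100% in replicate 2. Goblet cells held 27 UMIs (7.14 CPM) in replicate 1 and 0 UMIs in replicate 2, where 54 of 138 cells had a stored 0. Among the annotated intraepithelial lymphocytes (IEL) of replicate 1 there were 49 UMIs (186.6 CPM), 30 of them in 1 cell, and in those of replicate 2 there were 0. Compared with goblet cells, the Paneth level was 1495-fold higher in replicate 1, and no fold can be given for replicate 2. Mptx1, the other mucosal pentraxin gene, had the opposite order, with 0.853 and 3.44 CPM in Paneth cells and 15.3 and 119 CPM in goblet cells.

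Ang4 was at 10632 and 10488 CPM in Paneth cells (10560 ± 102, n = 2), values close to each other per total UMIs but not on every scale. Goblet cells held 36.0 and 79.1 CPM, and the Paneth level was 296-fold and 133-fold higher. Ang4 had 0 UMIs in the 931 and 382 enterocytes, of which 343 and 153 had a stored 0. Ang5 and Ang6, close relatives of Ang4, were detected at low level in Paneth cells, Ang5 with 6 and 62 UMIs and Ang6 with 10 and 46. Of the 40-base stretches at the 3′ end of Ang4, 19.5% also occur in Ang5, Ang2 or Ang6, so the split of reads among these genes is uncertain.

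Mmp7, the protease that activates the alpha-defensins, was less restricted to Paneth cells than Lyz1, Itln1, Ang4 and Mptx2. It reached 2719 and 1468 CPM there (2093 ± 885, n = 2) and 352 and 205 CPM in goblet cells, a ratio of 7.71 and 7.15. Paneth cells carried 84.5% and 90.9% of its UMIs among all kept cells, against at least 97.0% for those 4 genes and 17.6% and 95.4% for Lyz2. Goblet progenitors followed at 54.5 and 83.4 CPM, tuft cells at 65.3 and 58.9 CPM, and EECs at 30.6 and 27.9 CPM. Goblet progenitors and tuft cells overlapped, and tuft cells and EECs did not. The tuft value rested on few cells, however: a single cell held 20 of the 27 tuft UMIs in replicate 1, and a single cell held all 33 in replicate 2.

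**Figure D2:**
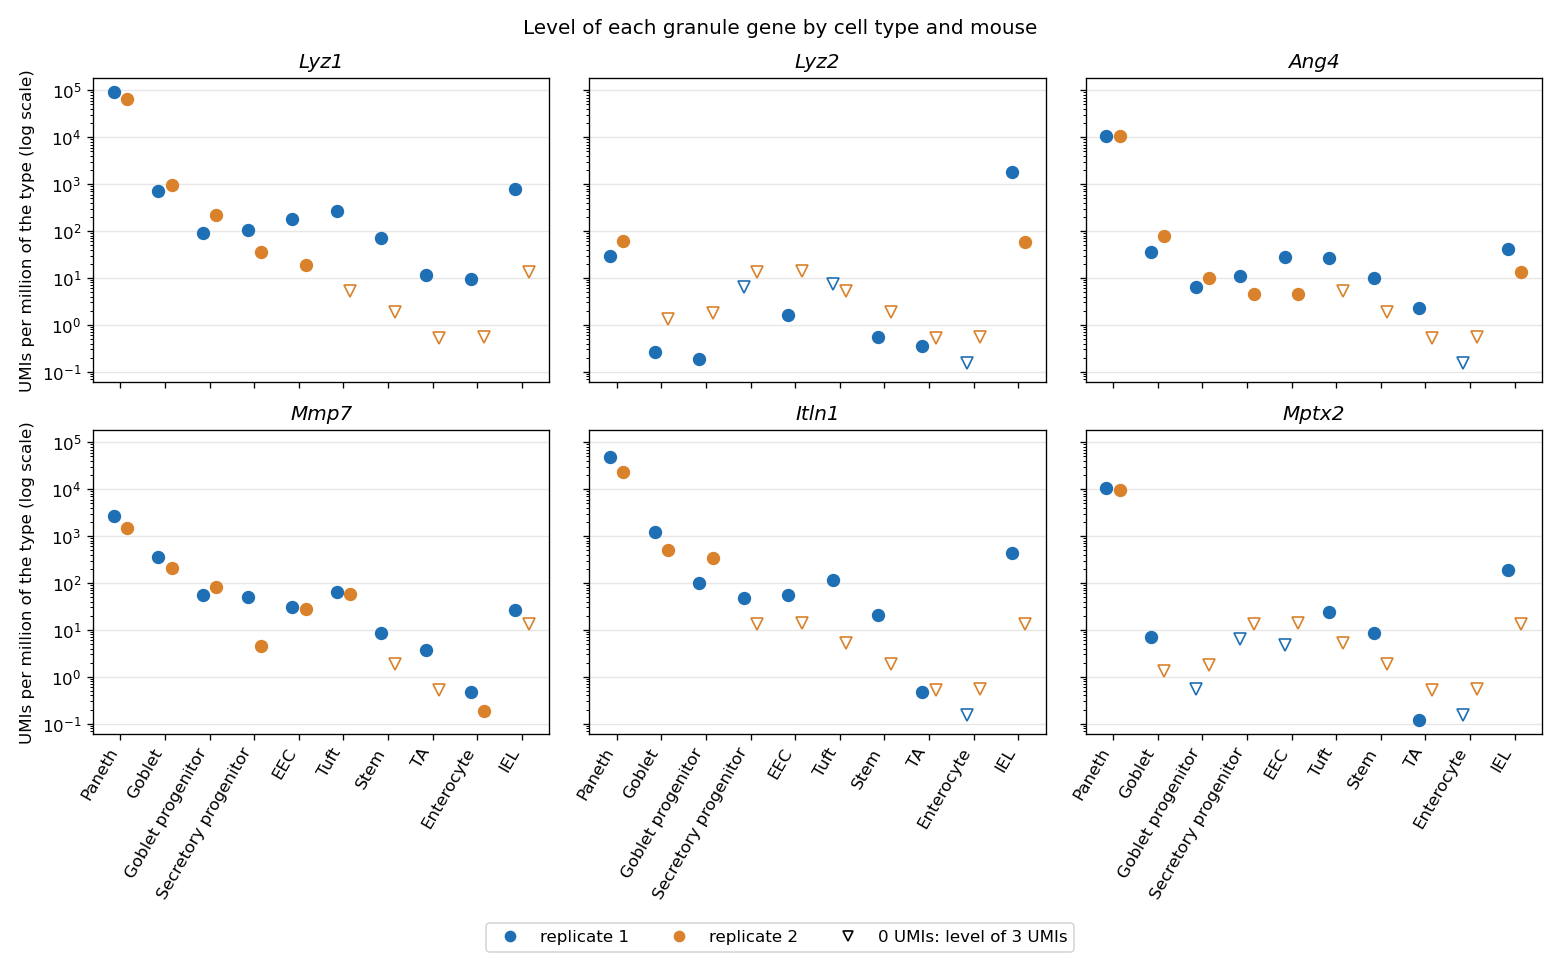
Level of each granule gene (vertical axis, CPM, log scale) in the 10 annotated cell types (horizontal axis) of replicate 1 (blue) and replicate 2 (orange). Open triangles mark sums with 0 UMIs, drawn at the level of 3 UMIs. For 5 of the genes Paneth cells stood above the next type in both mice, and Lyz2 was highest in IEL in replicate 1.

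IEL were the other place where Lyz2 was found. The IEL sums held 479 UMIs (1824 CPM) in replicate 1 and 13 UMIs (57.7 CPM) in replicate 2, the first above and the second close to the Paneth level. All of these came from 3 cells, of 50 and 18. The 2 cells of replicate 1 held 261 and 218 UMIs of Lyz2, and the cell of replicate 2 held 13. All 3 belonged to 1 of the 2 clusters that carry the IEL name, and all 3 lacked Cd3g, a chain of the T cell receptor complex. They carried 267, 217 and 202 UMIs of Cd74, the invariant chain of MHC class II, and 23, 19 and 13 UMIs of Tyrobp, an adaptor of myeloid and natural killer cells. Over all cells of that cluster the Tyrobp median was 28.5 UMIs in replicate 1 and 5 in replicate 2. Of other myeloid markers, the 3 cells held 4, 3 and 2 UMIs of Cd68, 1, 1 and 0 of Csf1r and 0, 2 and 0 of C1qa. They held 0 UMIs of Itgam and Adgre1.

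Markers went against the label IEL for that cluster in replicate 1. Its 22 cells held 0 UMIs of Cd3g, and the 7 IEL markers summed to 788 CPM against 29483 CPM in the 28 cells of the other IEL cluster, in which all 28 had Cd3g. In replicate 2 the same cluster had 13 cells, of which 4 had Cd3g, and its IEL markers summed to 2964 CPM against 25601 CPM in the 5 cells of the other. The 11 myeloid markers summed to 7493 and 1657 CPM in the cluster with Lyz2 and to 2858 and 824 CPM in the other. Of these 11, 7 and 4 were detected in the cluster with Lyz2 and 5 and 3 in the other. In the cluster with Lyz2, C1qb, C1qc, Itgam and Adgre1 were at 0 in both mice. Tyrobp was also found in 17 of 28 and 1 of 5 cells of the other cluster. In the other 9 types the myeloid markers summed to 0.853 to 32.5 CPM, with 0.853 and 6.87 CPM in Paneth cells. Their part in the Lyz2 level was not tested. IEL of replicate 1 also held 773 CPM of Lyz1, in 41 of 50 cells of median depth 4110 UMIs, and 4212 CPM of alpha-defensins, while IEL of replicate 2 held 0 UMIs of Lyz1 in 18 cells, 17 of them with a stored 0.

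The next comparison asked which epithelial type other than Paneth cells carried the members, and goblet cells were set against the mean of the other 7 non-Paneth types. Itln1, Lyz1, Mmp7 and Ang4 were higher in goblet cells, and for each of the 4 the goblet sum was the highest of the 8 types in both mice. For Ang4 in replicate 1 the counting intervals overlapped, however. Goblet cells held 36.0 CPM (30.2 to 42.5), EECs 27.4 CPM (16.0 to 43.9) and tuft cells 26.6 CPM (13.3 to 47.6). In replicate 2 these types held 79.1, 4.64 and 0 CPM of Ang4. By edgeR's quasi-likelihood test on the type sums, the adjusted p was 0.00039 for Itln1, 0.0038 for Lyz1, 2.3e-05 for Mmp7 and 0.0028 for Ang4. Mptx2 (adjusted p = 0.15 by the same test) and Lyz2 (0.61) did not pass. For Lyz2 the goblet sums held 1 and 0 UMIs, too few for the test to decide. In this comparison 19.2% of 11013 genes tested were higher and 14.8% lower, so 4 of 6 members higher stands beside a large background. The fitted log2 fold changes, from 4.72 for Ang4 to 7.44 for Itln1, were set partly by zeros in the other types and do not bound the difference.

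Stored zeros moved with the comparison. For Lyz1 they covered 24.5% of goblet cells and 91.7% of enterocytes in replicate 1, and their part in the result was not tested. Mmp7 had fewer of them than Lyz1: 5 of 277 and 6 of 138 goblet cells, against 129 of 931 and 42 of 382 enterocytes. In enterocytes they still outnumbered the cells with an Mmp7 UMI, which were 6 and 1. An Mmp7 UMI was found in 149 of 277 (53.8%, 95% exact binomial interval 47.7 to 59.8) and 69 of 138 goblet cells (50.0%, 41.4 to 58.6). In enterocytes, with median depths of 16975 and 13405 UMIs against 13649 and 15709 in goblet cells, the share was 0.644% and 0.262%. After thinning to 5000 UMIs, which left out 1 goblet cell and 1 enterocyte of replicate 1 and none of replicate 2, the goblet share was 41.7% and 36.2% and the enterocyte share 0.108% and 0%. In the values as deposited, the difference between the 2 types was therefore present in both mice at equal depth. Thinning acts on the deposited counts and leaves the stored zeros as they are, and their part in the Mmp7 difference was not tested.

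Goblet Lyz1 was unevenly spread over cells. At least 10 UMIs of Lyz1, a limit chosen after the values were seen, were found in 42 of 277 and 23 of 138 goblet cells, and the highest cells held 280 and 372. The 5 cells highest in Lyz1 carried 32.4% and 55.0% of goblet Lyz1, and the 5 highest in Mmp7 carried 16.0% and 26.4% of goblet Mmp7. In 21 of the 42 and 16 of the 23 cells, Lyz1 exceeded the summed UMIs of all 21 alpha-defensins, which had a median share of 0.152% and 0.0110% of UMIs in these cells. All 42 and all 23 carried Muc2, the main intestinal mucin, with medians of 141.5 and 53.0 UMIs against 118 and 55.5 in all goblet cells. Their median depth was 14208 and 14721 UMIs against 13649 and 15709. The goblet cells with at least 10 Lyz1 UMIs thus had a typical median Muc2 level. Muc2 was not read separately in the 21 and 16 cells with more Lyz1 than alpha-defensin UMIs. Stored zeros were not counted by type for the alpha-defensins, and their part in that excess was not tested.

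Goblet cells with alpha-defensins above 1% of their UMIs numbered 20 and 10, and their omission from the levels was chosen after the data were seen. Without them goblet Lyz1 was 512 and 621 CPM, Mmp7 279 and 180 CPM, and Ang4 35.0 and 73.1 CPM. Goblet Itln1 moved most, from 1196 and 504 to 763 and 318 CPM. Mmp7, Ang4, Itln1 and Lyz1 still passed the edgeR test with these cells left out. Whether some goblet barcodes hold RNA of 2 cells was not tested here.

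The mixture of granule genes differed between the classes. Within the summed UMIs of the 6 members, Mmp7 made up 1.65% and 1.33% in Paneth cells but 15.4% (14.6 to 16.1) and 11.6% (10.6 to 12.7) in goblet cells and 21.7% and 12.8% in goblet progenitors. Ang4 went the other way, with 6.44% and 9.50% in Paneth cells against 1.57% and 4.48% in goblet cells, as did Mptx2 with 6.47% and 8.56% against 0.311% and 0%. Lyz1 made up 55.4% and 59.5% in Paneth cells and 30.6% and 55.4% in goblet cells, and Itln1 30.1% and 21.0% against 52.1% and 28.5%. Stored zeros also differed between these classes and genes, and their part in the mixture was not tested.

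The members were also set against the alpha-defensins. For each 100 alpha-defensin UMIs there were 12.9 and 8.55 UMIs of Lyz1 in Paneth cells and 18.9 and 24.8 in goblet cells. Itln1 went from 7.03 and 3.02 to 32.2 and 12.8, and Mmp7 from 0.385 and 0.191 to 9.49 and 5.21. Ang4 was lower in goblet cells of replicate 1, at 0.968 against 1.51, and higher in those of replicate 2, at 2.01 against 1.36. Among alpha-defensins abundant in Paneth cells of replicate 2, Gm15284 (117915 CPM there) and AY761184 (59337 CPM) were at 0 CPM in its goblet cells. Defa24 and Defa17 were at 3684 and 239 CPM in these goblet cells. Stored zeros were not counted by type for the alpha-defensins, and their part in these ratios was not tested. In goblet progenitors the mice stood far apart, since the alpha-defensins summed to 100 UMIs in replicate 1 and 2978 in replicate 2. The sum of replicate 2 rested on few cells, as 1 cell held 1987 of these UMIs and 5 cells held 95.3%.

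**Figure D3:**
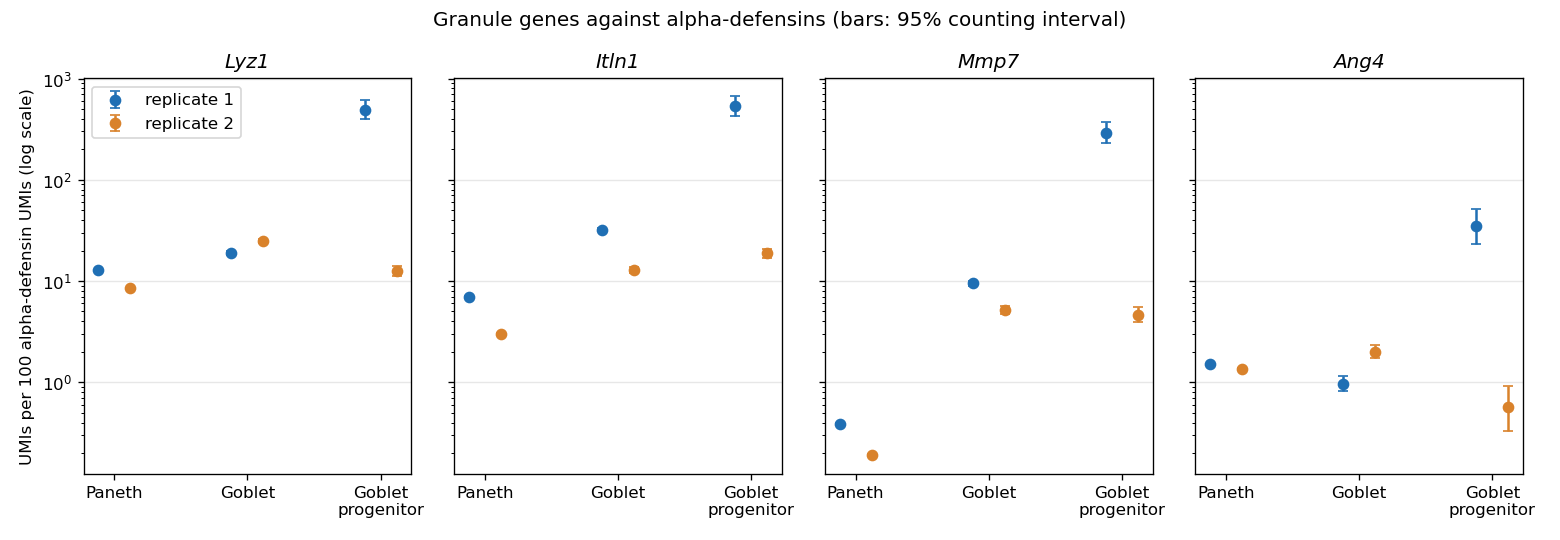
UMIs of Lyz1, Itln1, Mmp7 and Ang4 for each 100 alpha-defensin UMIs (vertical axis, log scale) in Paneth cells, goblet cells and goblet progenitors (horizontal axis) of each mouse, with 95% counting intervals. Mmp7 was at 0.385 and 0.191 in Paneth cells and at 9.49 and 5.21 in goblet cells, while the order for Ang4 differed between the 2 mice. The part of stored zeros in these ratios was not tested.

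Secretory progenitors, the annotated precursors of the secretory lineages, were few (31 and 19 cells) and did not stand out. Set against the other 7 non-Paneth types, none of the 6 members passed the edgeR test. Lyz2 and Mptx2 held 0 UMIs in the secretory progenitors of both mice, so they could not have been called higher. The adjusted p of the others by this test ran from 0.69 for Mmp7 to 1. The background was 3.19% of genes higher and 1.48% lower. Lyz1 was at 104 and 35.7 CPM, Mmp7 at 49.9 and 4.46 CPM, Itln1 at 47.8 and 0 CPM and Ang4 at 10.9 and 4.46 CPM. The lower values rest on 8 Lyz1 UMIs, 1 Mmp7 UMI and 1 Ang4 UMI, so a low level was not detectable at this depth. Regulators of the secretory branch were higher in the same sums, among them Atoh1 at 73.8 and 62.5 CPM and Spdef at 117 and 120 CPM, against 3.36 and 1.87 CPM and 2.80 and 0.623 CPM in stem cells. Goblet cells held more of both, with Atoh1 at 212 and 203 CPM and Spdef at 211 and 190 CPM. Atoh1 was also among the markers chosen to check the secretory progenitor label.

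The wider Paneth programme was read from 3 further lists of genes. When Paneth cells were set against the mean of the other 8 epithelial types, 15.5% of 11013 genes were called higher and 11.4% lower by the edgeR test. Since the classes were named from expression in the same cells, these counts describe how far Paneth cells stand apart. The low-count filter could also keep a gene on its Paneth counts alone, and such a gene was bound to lie higher there. How many listed genes entered the test that way was not counted, so the counts of the lists are no test of them. Among 27 other secreted Paneth products, 25 were higher and none lower, against 24 higher and 2 lower when totals alone set the scale. Among those with the largest changes were AY761184 (71583 and 59337 CPM), Gm14851 (39576 and 54825 CPM) and Defa21 (34833 and 53875 CPM), all of the alpha-defensin family. Reg3a and Reg3b, which encode lectins of the Reg3 family, were the 2 that did not pass and held 0 UMIs in Paneth cells of both mice.

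The genes for Paneth identity, granule packaging and niche depended on the scale. On the main scale (TMM), which offsets the share taken by alpha-defensins, 21 of 22 were higher and none lower, with a median log2 fold change of 3.15 against -0.04 for all genes tested, whereas with totals alone 6 were higher and 8 lower with a median of -0.04 against -3.20. The largest changes were those of Nupr1, a stress-response regulator (745 and 546 CPM in Paneth cells, 191 and 113 CPM in goblet cells), and Wnt3, a signal that maintains stem cells (39.3 and 28.9 against 5.02 and 11.2 CPM). Bhlha15 (Mist1), a regulator of secretory cells, was at 26.7 and 16.5 CPM and Fgfrl1 at 25.9 and 6.87 CPM in Paneth cells. In goblet cells 17 of the 22 were higher and none lower, led by Agr2, Atoh1, Spdef and Gfi1, against 17 higher and 1 lower with totals alone. Over all 11013 genes 19.2% were higher and 14.8% lower in goblet cells, and with totals alone 1209 genes were higher and 4420 lower. In secretory progenitors 7 of 22 were higher and none lower on both scales, led by Gfi1, Spdef, Atoh1 and Kit. Beside this, 3.19% of all genes were higher there, or 432 genes with totals alone.

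Of the 27 other secreted products tested, 10 were higher and none lower in goblet cells (10 and 1 with totals alone), beside 19.2% of all genes higher and 14.8% lower. They were led by Mptx1, Defa24 (3440 and 3684 CPM), Spink4 (26703 and 34299 CPM) and Clps, a colipase gene (191 and 152 CPM). In secretory progenitors 1 of 27 was higher, a share near the 3.19% of all genes. It was Clps, with 67.3 and 89.3 CPM and an adjusted p of 0.018 by edgeR.

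Few relatives of the members were abundant. Of 17 listed, 15 were in the matrices and 6 had enough counts to be tested. Of these 6, 4 were called higher and none lower in Paneth cells on the main scale, but 3 higher and 2 lower with totals alone. Over all 11013 genes the Paneth shares were 15.5% higher and 11.4% lower on the main scale, and with totals alone 144 genes were higher and 9677 lower. In goblet cells 5 of 6 were higher beside 19.2% of all genes, and 4 with totals alone, when 1209 of all genes were. In secretory progenitors 3 of 6 were higher on both scales, namely Ang, Mmp14 and Rnase4, beside 3.19% of all genes, or 432 genes with totals alone. Ang, the angiogenin gene, and Rnase4 were present in all 9 epithelial types, Ang at 114 and 55.5 CPM in Paneth cells against 189 and 172 CPM in goblet cells, and Rnase4 at 170 and 87.1 against 290 and 303 CPM. These 2 genes thus had, per total, more UMIs in goblet cells, where Ang4 was lower by more than 100-fold. Mptx1 counts both as a relative and as a secreted product.

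Single Paneth cells all carried Lyz1, Ang4, Mmp7 and Itln1. Lyz1 took a median of 9.45% of a cell's UMIs in replicate 1, with a lowest value of 2.19% and a highest of 16.4%, and 6.10% (1.82% to 10.97%) in replicate 2. Itln1 took 4.97% (2.64% to 7.78%) and 2.27% (0.412% to 3.83%), and the interquartile ranges of the 2 mice did not overlap. Ang4 took 1.02% and 0.996%, and a single cell of replicate 1 held 1 UMI of it where the median cell held 453.5. Mmp7 took 0.258% and 0.133%.

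Mptx2 was the most uneven of the abundant members. Its share ran from 0% to 4.38% in replicate 1 and from 0% to 2.53% in replicate 2, around medians of 0.819% and 0.814%, and it was at 0 in 1 cell of each mouse. The standard deviation over cells was 90.1% and 61.1% of the mean, against 24.1% to 31.7% and 32.3% to 43.7% for Lyz1, Ang4, Mmp7 and Itln1. Lyz2 varied by 101% and 62.8%, at medians of 1 and 4 UMIs a cell.

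**Figure D4:**
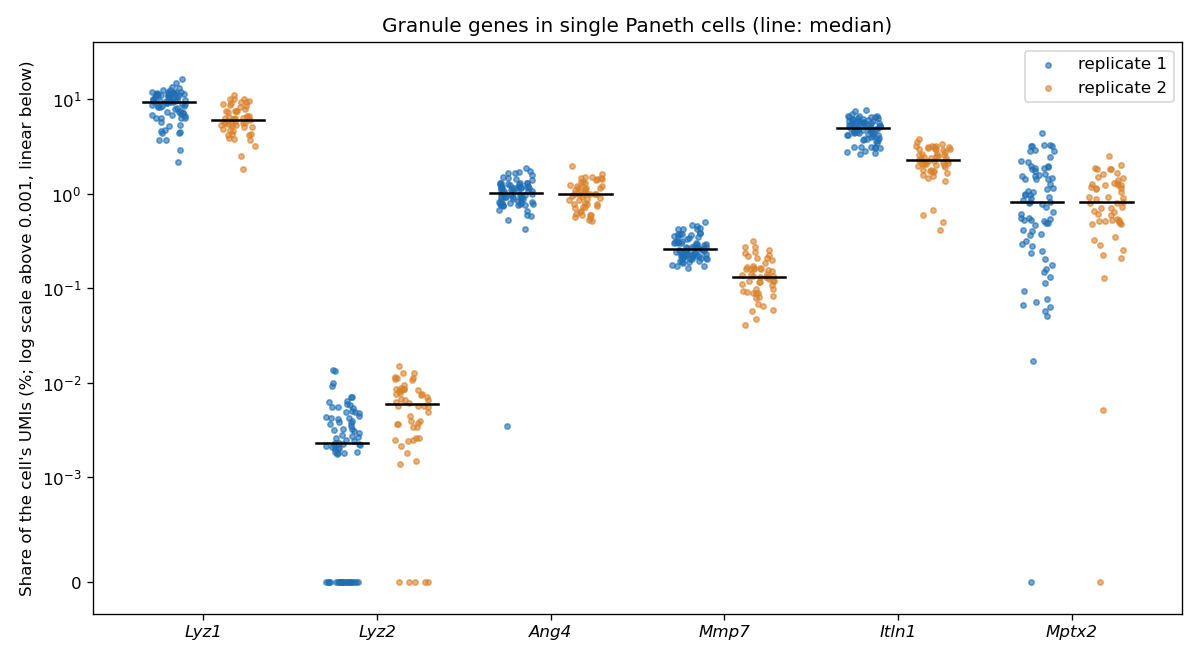
Share of each Paneth cell's UMIs (vertical axis, %, log scale above 0.001 and linear below) taken by each granule gene (horizontal axis) in replicate 1 (blue, 78 cells) and replicate 2 (orange, 54 cells), with a line at the median. Mptx2 spreads from 0% to 4.38% in replicate 1, while Itln1 stays between 2.64% and 7.78%.

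Across the cells of a mouse the members were only loosely linked, and these correlations are descriptions over cells that share a library and differ in depth. Lyz1 and Lyz2 had Pearson r of 0.42 over 78 cells and 0.54 over 54. Mmp7 and Itln1 had r of 0.09 in replicate 1 and 0.71 in replicate 2, and Ang4 and Mmp7 had -0.13 and 0.55, so the links differed between the mice. Lyz1 had r of 0.33 and 0.32 with the log2 UMI total of the cell, and Mmp7 had -0.31 and 0.19.

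Across the 20 sums of type and mouse, Lyz1, Ang4, Mmp7 and Itln1 had similar patterns, with r from 0.82 to 0.95 between any pair (log2 of CPM + 1), as a description over sums that share libraries. Among 5744 genes with 50 or more CPM in a sum, those most like Lyz1 were Defa24 (r = 0.95), Clps (0.90) and Pnliprp2 (0.88). For Itln1 they were Defa24 (0.97), Ccl6 (0.91) and Clps (0.86). For Mmp7 they were Clps (0.87), Spink4 (0.85) and Defa24 (0.85), all of which also had over 100 CPM in goblet cells of both mice. For Ang4 they were Pnliprp2 (0.94), Defa26 (0.93) and Defa21 (0.90), and for Mptx2 Gm14851 (0.98), AY761184 (0.98) and Defa26 (0.97). Those most like Lyz2 were Cd244 (0.89), Tesc (0.87) and Ckm (0.87), each under 16 CPM in Paneth cells. Lyz2 had r of 0.42 with Lyz1 and 0.23 with Mmp7.

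The 2 mice differed in the composition of the Paneth granule transcripts. The 6 members together took 16.5% of Paneth UMIs in replicate 1 and 11.04% in replicate 2, while the alpha-defensins went from 70.5% to 76.8%. The ratio of replicate 2 to replicate 1 was 0.468 for Itln1, 0.540 for Mmp7 and 0.720 for Lyz1, near 1 for Ang4 (0.986, 95% counting interval 0.973 to 1.00003) and 0.885 for Mptx2. Lyz2 went the other way, with a ratio of 2.09 (1.66 to 2.65). With all alpha-defensins and members taken out of the denominator, Ang4 had a ratio of 1.06 and Mptx2 0.947, while Itln1 (0.500), Mmp7 (0.578) and Lyz1 (0.770) stayed below 1. On the TMM scale Ang4 was at 1.27 and Mptx2 at 1.14, and the other 3 again stayed below 1.

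Goblet cells showed like ratios for Itln1 (0.422, 0.395 to 0.450) and Mmp7 (0.582, 0.523 to 0.648). For Lyz1 the direction turned, with 1.39 (1.32 to 1.48) in goblet cells, and Ang4 was 2.20 (1.75 to 2.77). These 2 ratios rested on few cells. The 5 cells highest in each gene, chosen separately, carried 55.0% of goblet Lyz1 and 75.7% of goblet Ang4 in replicate 2. The share of goblet cells with a UMI ran the other way, from 74.0% in replicate 1 to 34.8% in replicate 2 for Lyz1 and from 26.0% to 10.9% for Ang4. For Lyz1 this fall was not confined to goblet cells. In replicate 1 a Lyz1 UMI was found in 30 of 40 tuft cells, 38 of 54 EECs and 41 of 50 IEL. In replicate 2 it was found in 0 of 38, 2 of 20 and 0 of 18. Among the types other than Paneth cells, the Lyz1 share rose only in goblet progenitors, from 19.8% to 22.6%. The share of goblet cells with a stored 0 went from 24.5% to 64.5% for Lyz1 and from 26.4% to 37.7% for Ang4. The part of stored zeros in these shares and ratios was not tested. With 1 library for each mouse there was no replicate of either, so a difference between animals and a difference between libraries cannot be told apart, and no test was made. The labels give the same kit chemistry (v2) for both mice, but the barcodes of the libraries mostly began differently: of the 445 distinct starts of 7 bases in replicate 2, 118 occurred among the 960 of replicate 1. Whether the kit version differed was not tested, and its part in the ratios cannot be told apart from that of the animals.

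**Figure D5:**
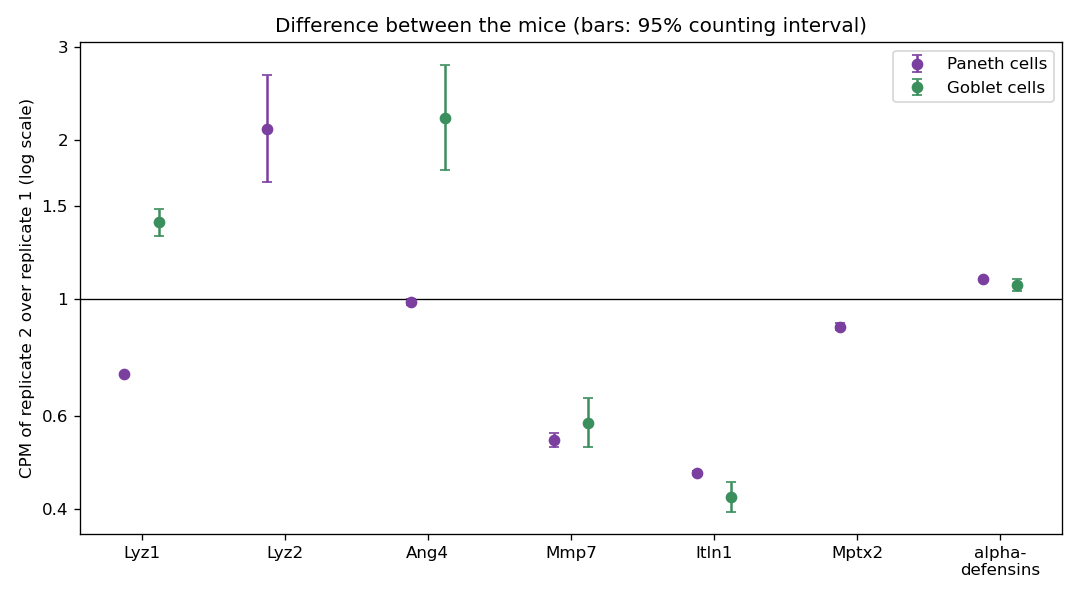
Ratio of CPM in replicate 2 to CPM in replicate 1 (vertical axis, log scale) for each granule gene and the summed alpha-defensins (horizontal axis) in Paneth cells (purple) and goblet cells (green), with 95% counting intervals. Itln1 and Mmp7 lie below 1 in both classes, while Lyz1 lies below 1 in Paneth cells (0.720) and above it in goblet cells (1.39). Lyz2 and Mptx2 have no goblet point because 1 or both sums held 0 UMIs.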

How the data were processed

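Single-cell RNA-seq was performed by the authors on jejunal crypts of 2 miR-375 knockout mice, 1 library each. Per the labels and the study's methods, reads were aligned to mm10 with Cell Ranger 3.0.1, free RNA was removed with SoupX, doublets were called with scDblFinder, cells under 1500 genes or with high mitochondrial content were removed, and cells were normalised with sctransform, integrated and clustered in Seurat (3.2.1 in the processing notes) and named by module scores. The deposited matrices hold UMI counts, whole numbers per gene and barcode. The deposited table of mitochondrial percent and the score table (sctransform) were made by the authors and were not used for levels. A further 2937 cell columns in the whole-study tables match no sample here and were left out. Author annotations were joined to the matrices, and 3275 of 3275 cells agreed in UMI total, gene number and library with the count table of the study.

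UMIs were summed per mouse and type. The 18 sums of the 9 epithelial types, all of 10 or more cells, were fitted with edgeR 4.0.16 (R 4.3.3, TMM scaling, low-count filter, robust quasi-likelihood, type and mouse as terms, 8 residual degrees of freedom), two-sided, with Benjamini-Hochberg adjustment over 11013 genes at 0.05. The test was checked on simulated counts. Replicates are separate mice. Intervals are exact Poisson, Clopper-Pearson or conditional binomial at 95%, and in plots a sum of 0 was drawn at the level of 3 UMIs. Alternatives used DESeq2 1.42.0, other scales, filters, thinning to 5000 UMIs, left-out cells and left-out mice. Sequences and positions came from RefSeq (GRCm38.p6) and GENCODE M21. The members and gene lists were chosen with earlier results of these data known. All members were named, with the 3 genes most alike to each and up to 4 leading genes of each list, of which 1 is not reported here; other genes were named after their values were seen.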

Additional observations from a re-analysis of the deposited data

Results flagged for a closer look

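Data outside the comparisons held the granule genes at high level. The authors kept 2082 of 7665 barcodes in replicate 1 and 1193 of 1251 in replicate 2. Among the barcodes not kept, 130 in replicate 1 and 29 in replicate 2 had 50% or more of their UMIs in alpha-defensins, with a median of 27889 and 36795 UMIs. Lyz1 was at 77751 and 48559 CPM in them, against 91311 and 65733 CPM in the kept Paneth cells. Of these barcodes, 69 and 14 had under 1500 detected genes. In replicate 1 the 130 outnumbered the 78 kept Paneth cells. The kept Paneth cells had medians of 1918 and 2161 detected genes. In the barcodes not kept, Itln1 was at 43895 and 21289 CPM, Mptx2 at 8423 and 8991 CPM and Lyz2 at 34.4 and 37.9 CPM.

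Entries stored as 0 were a second signal that no comparison used. For Lyz1 they covered 91.7% of the enterocytes in replicate 1 and 97.4% in replicate 2, and no Paneth cell. What these entries held before deposit is not known from the files.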

How the results depend on the processing

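The block by mouse was part of the main fit, and all mice belong to 1 group, so no paired analysis was possible because no 2 groups share replicate numbers. The count of genes called was 2969 for Paneth cells, 3742 for goblet cells and 514 for secretory progenitors. It was 9821 for Paneth and 5629 for goblet cells with library sizes only, when 1.47% and 21.5% of calls were higher against 57.7% and 56.5% in the main fit, and the median of all genes moved to -3.20 and -0.51. For secretory progenitors 82.3% of calls were higher with library sizes only, against 68.3%. After thinning the count was 843 for Paneth and 2178 for goblet cells. Without the mouse term (no replicate block) it was 2093 for goblet cells and 190 for secretory progenitors.

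Lyz1, Itln1, Mmp7 and Ang4 passed the goblet test under all 9 alternatives with a test, with adjusted p of at most 0.017 by edgeR or DESeq2. Mptx2 passed in goblet cells (log2 fold change 4.75) only without the filter on low counts. Lyz2 turned to -0.10 with DESeq2 and -0.90 after thinning. With 1 mouse left out there was no test, and the goblet log2 fold change ran from 3.92 to 7.93 for Lyz1 and from 2.85 to 5.58 for Ang4. It had no value for Mptx2 without replicate 1, where both sides were 0, and was 2.90 without replicate 2. In secretory progenitors it ran from 0.27 to 1.94 for Lyz1, from -1.19 to 1.26 for Mmp7 and from -2.52 to 0.87 for Itln1, and DESeq2 gave 1.60 for Lyz2 and 0.38 for Mptx2, against -2.09 and -3.30. Lyz2 and Mptx2 held 0 UMIs in the secretory progenitors of both mice, so no direction is read from their values.

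The summed members in Paneth cells, 137684 CPM, became 986336 on the TMM scale and 1092470 per 1000000 UMIs without alpha-defensins and members in the denominator, by the construction of those scales. Their ratio between the mice, 0.669, was 0.861, 0.651, 0.662 and 0.716 under TMM, the stricter cell filter, thinning and that denominator. The ratio turned for Ang4 (1.27 and 1.06) and Mptx2 (1.14), as given above. The goblet share with Mmp7 went from 51.9% to 38.9% after thinning. The cause of changes not named here was not tested. With 2 mice and sums of 18 to 54 cells in the rarest types, low levels there were not resolved.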

Other observations

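Genes of the Reg3 family, secreted lectins that are often listed among Paneth products, were highest in enterocytes. Reg3b had 13361 CPM in enterocytes of replicate 1 and 2524 CPM in replicate 2, and 0 UMIs in all 78 and 54 Paneth cells. In 74 of the 78 and 40 of the 54 Paneth cells its entry was stored as 0, which is the reverse of the pattern of Lyz1. Reg3a had 1127 and 1088 CPM in enterocytes and 0 UMIs in Paneth cells, with a stored 0 in 11 and 24 of them. Reg3g remained detectable, at 675 and 252 CPM in Paneth cells against 4553 and 2802 CPM in enterocytes, with a UMI in 72 of 78 and 42 of 54 Paneth cells. These genes were chosen after their values were seen.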
